A study of Solanum lycopersicum and Solanum pennellii and Solanum pimpinellifolium with 52 samples.

Results

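Seedlings of Solanum habrochaites LA1777, a green-fruited wild relative of tomato, were compared with seedlings of cultivated tomato, S. lycopersicum LA3475. The comparison took every S. habrochaites library and every S. lycopersicum library of the seedling experiment by their titles, 7 of each, which is 14 of the 52 libraries of the series. All 14 seedling samples were harvested from plates under standard light, RNA was extracted with a Qiagen kit, and libraries were made with an Illumina mRNA kit. The 14 other libraries of this experiment, 7 from S. pennellii LA716 (green-fruited) and 7 from S. pimpinellifolium LA1589 (red-fruited), entered the same fit, and 24 libraries of S. pennellii LA716 and S. lycopersicum LA3475 came from a separate factorial of tissues grown in artificial shade or artificial sun and extracted with Trizol. Each species stands for 1 accession, seedling age is not given in the sources used here, and no label ties a library to separate plants or pools, so p-values here rest on variation among libraries that may be technical.

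S. habrochaites is a hairy perennial of the Andes whose glandular trichomes make acylsugars and terpenes that deter insects, and accession LA1777 has been used as a donor of chromosome segments for breeding into tomato. Tomato and its wild relatives share a chromosome number and a largely collinear genome, so reads of one species can be counted on gene models of another. Transcript levels between such species differ through regulatory changes, through genes gained, lost or broken in one lineage, and, in the measurement itself, through sequence divergence that lowers how many reads match. The table does not pair its gene IDs with names, and 0 of them were found among RefSeq's genes of assembly SLM_r2.1. Genes are therefore described by their IDs, at most 2 per direction in each comparison, and by their expression in other species and tissues. The number after "Solyc" in an ID is its chromosome.

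Libraries of S. habrochaites held 1477052 to 3560240 reads, and those of S. lycopersicum 1650214 to 3505032. A gene with the median implied length of 980 bases and an RPKM of 1 (reads scaled to gene length and library total) stands for 2.1 reads in a library of median depth. Between 18062 and 20362 gene models had a read in an S. habrochaites library, against 18957 to 20720 in an S. lycopersicum library. The first principal component of the 14 libraries (43.2% of the variance) held all 7 S. habrochaites libraries above 32 and all 7 S. lycopersicum libraries below -36. The second (20.3%) followed run block, that is, the number range of the run record in the labels, whose meaning is not stated. The first component differed by run block too. S. habrochaites libraries lay at 32.73 to 40.08 in block 1 and at 74.72 to 77.46 in block 2. S. lycopersicum libraries lay at -76.89 to -73.09 in block 1 and at -49.62 to -36.4 in block 2. Block 1 holds 3 libraries of each of the 2 species, block 2 holds 2 of S. habrochaites and 4 of S. lycopersicum, and block 3 holds 2 of S. habrochaites only.

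**Figure D1:**
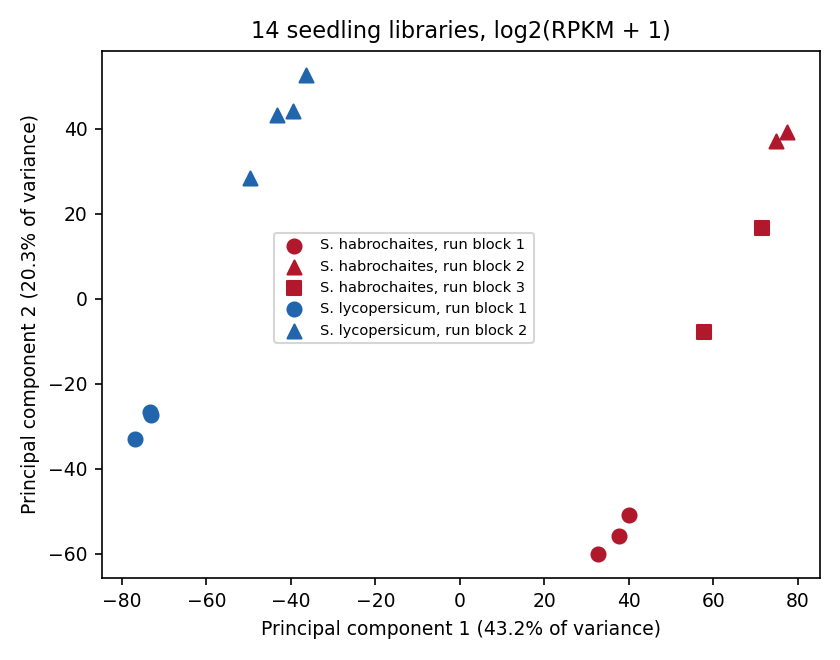
Scores of the 14 libraries on the first and second principal component of log2(RPKM + 1), with colour for species and marker shape for run block. The species lie on opposite sides of the first component, and within each species the libraries of block 1 have lower scores than those of block 2 on both components.

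Of 19536 genes tested, 2592 differed between S. habrochaites and S. lycopersicum seedlings (13.3%), 794 of them higher (4.06%) and 1798 lower (9.2%) in the wild species. A call needed an adjusted p under 0.05 together with a log2 difference of 1 or more in size (limma on log2(RPKM + 1), Benjamini-Hochberg adjustment over all genes tested). Without the limit on size, 2279 genes were higher and 4413 lower, together 34.3% of those tested. On this scale, which understates changes of low genes, the median difference was 1.44 among higher calls and -1.43 among lower calls. A log2 difference of 3 was reached by 61 higher and 127 lower calls.

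The lean towards lower calls depends on how libraries are scaled. Over all genes the median log2 difference was -0.14 as deposited, -0.03 with median-ratio scaling and 0.02 with quantile normalization, so the medians of gene groups below are also given relative to that of all genes. With 30.6% of the calls higher as deposited, median-ratio scaling called 1026 genes higher and 1540 lower, and quantile normalization 1172 higher and 1332 lower (46.8% higher). Libraries of run block 1 alone gave 919 higher and 1676 lower genes, those of block 2 alone 623 and 2217. Of the 2592 genes, 1480 were called in the same direction within both blocks (402 higher and 1078 lower), and 212 within neither. Between the blocks themselves, 111 genes were higher and 1436 lower in block 2 than in block 1, in a fit with species and block over the libraries of those blocks in all 4 species. These held 9.34% of the genes called between the species and 7.92% of all genes.

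**Figure D2:**
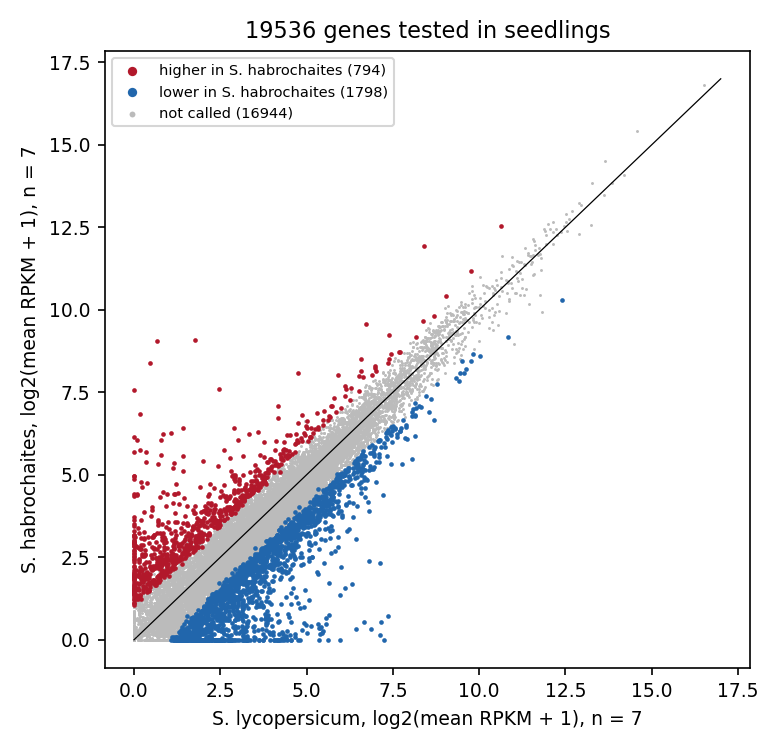
Mean expression of each of the 19536 genes in S. habrochaites (vertical axis) and S. lycopersicum (horizontal axis), as log2(mean RPKM + 1) over 7 libraries of each species, with the 794 genes called higher and the 1798 called lower in colour. Most calls lie near the diagonal band, and a smaller number lie along each axis, where one species is at or near 0.

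The genes called higher held a median of 2.34% of the reads in S. habrochaites libraries (2.09% to 2.47%), against 0.708% in S. lycopersicum libraries (0.649% to 0.769%). Those called lower held a median of 1.72% (1.5% to 2.17%) in S. habrochaites, against 5.04% (4.81% to 5.98%) in S. lycopersicum. The direction of these shares follows from the calls, which rest on the same libraries, so the shares describe size only. In summed RPKM, the 10 genes with the largest rise made up 48.8% of the whole rise of the 794 higher genes, and the 10 with the largest fall 22.7% of the whole fall of the 1798 lower genes.

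At the far end of the range, some genes were near silent in one of the species. In S. habrochaites, 574 of the lower genes had a mean RPKM under 1, and 167 had no read in any of its 7 libraries. In S. lycopersicum, 300 of the higher genes had a mean RPKM under 1, and 75 had no read. With at least 100 reads in the expressing species, 17 lower genes had no read in S. habrochaites and 14 higher genes had none in S. lycopersicum. Of these 17, 10 had a mean RPKM of at least 1 in both S. pennellii and S. pimpinellifolium. Of the 14, 13 had such a level in S. pennellii and 8 in S. pimpinellifolium. Weak transcription and reads too diverged to match the gene model cannot be told apart here.

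By log2 difference, the first of the genes higher in S. habrochaites by the naming rule was Solyc12g088180.1.1, on chromosome 12 (implied length 684 bases). Its RPKM in S. habrochaites ran from 304 over a median of 577 to 788, against 0 to 2.26 with a median of 0 in S. lycopersicum, where 5 reads were counted (925-fold higher, log2 difference 8.51 ± 0.31 SE, adjusted p = 7.0e-19). The groups did not overlap, and within S. habrochaites the 3 libraries of run block 1 (304, 317 and 383) lay below the 2 of block 2 (708 and 788) and the 2 of block 3 (577 and 649). The gene was also expressed in seedlings of S. pennellii (230 to 556) and S. pimpinellifolium (88.9 to 254). In the factorial it ran from 268 to 1399 RPKM over 12 S. pennellii libraries, with the highest tissue mean in stem (1106), against 0 to 4.65 over 12 libraries of S. lycopersicum. It was thus near 0 in every S. lycopersicum library of both experiments.

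The next gene, Solyc01g073970.2.1, had another pattern among the wild species. This gene ran from 231 over a median of 317 to 450 RPKM in S. habrochaites, against 0 to 1.44 in S. lycopersicum, where 2 reads were counted over 7 libraries (log2 difference 8.0 ± 0.29 SE, adjusted p = 6.3e-19). S. pennellii seedlings had 159 to 382 RPKM, and S. pimpinellifolium had 0 to 2.88, so the red-fruited species were low and the green-fruited high. In the factorial, S. pennellii expressed it in all tissues, from a mean of 70.8 in leaf to 469.5 in inflorescence, and S. lycopersicum had at most 6.25 RPKM in any library.

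In the opposite direction, Solyc10g051380.1.1 had no read in the 7 S. habrochaites libraries, against 106 over a median of 156 to 205 RPKM in S. lycopersicum. Set against a floor of 3 reads for the group, which covers counting error only, the gene was at least 322-fold lower (log2 difference -7.21 ± 0.20 SE, adjusted p = 6.6e-22). S. pennellii (82.5 to 224 RPKM) and S. pimpinellifolium (81.4 to 181) both expressed it, so S. habrochaites was the one species without a read. In the factorial the mean was highest in leaf in both species, at 357 RPKM in S. pennellii and 726.5 in S. lycopersicum.

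Solyc02g090840.2.1 had 5 reads over the S. habrochaites libraries (0 to 2.80 RPKM), against 80.5 over a median of 182 to 247 RPKM in S. lycopersicum (256-fold lower, log2 difference -6.72 ± 0.36 SE, adjusted p = 8.7e-15). S. lycopersicum libraries of run block 1 (80.5, 102 and 104) lay below those of block 2 (182 to 247), and both lay far above S. habrochaites. In the factorial the gene was highest in root, with a mean of 720 RPKM in S. pennellii and 503 in S. lycopersicum. Both named genes that fell in S. habrochaites are therefore expressed in every other species of the series and over all tissues tested.

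**Figure D3:**
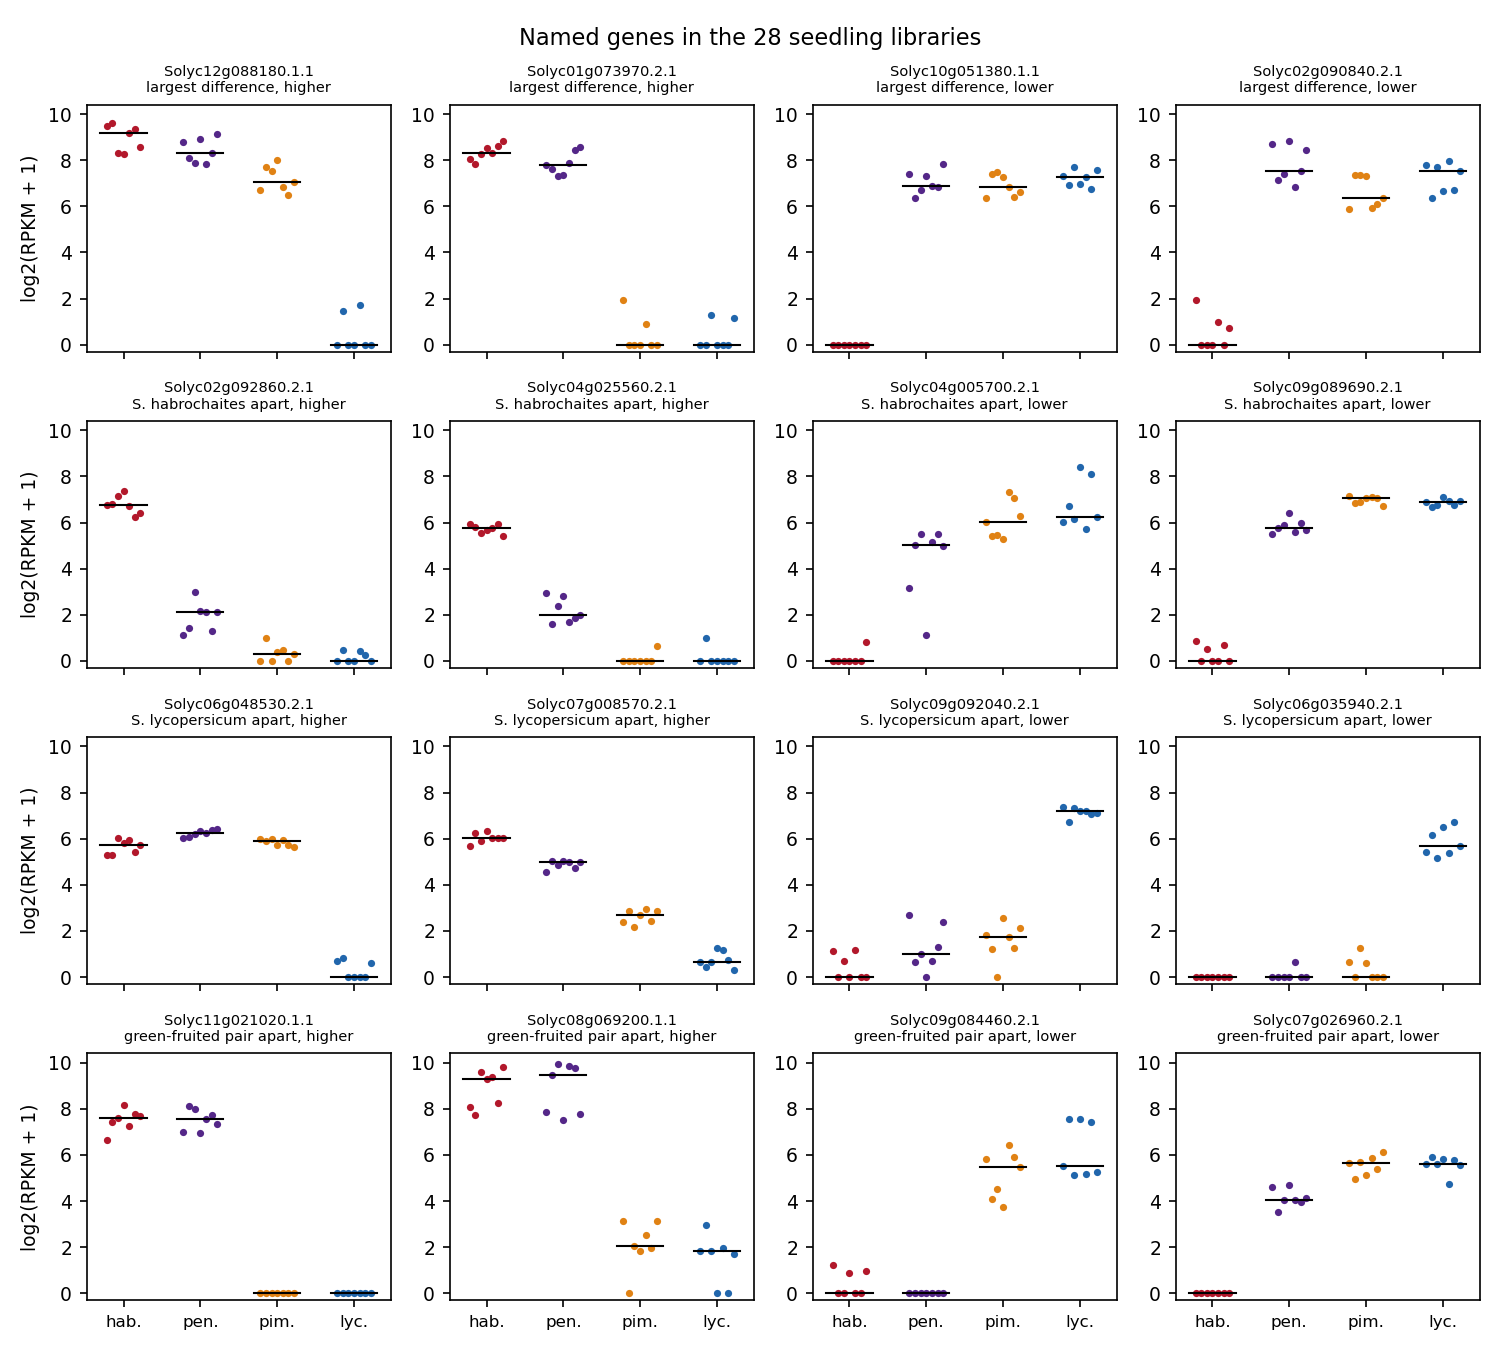
Log2(RPKM + 1) of the 16 named genes in the 28 seedling libraries, 7 points and a median line for each species, from left to right S. habrochaites, S. pennellii, S. pimpinellifolium and S. lycopersicum. Rows show the largest differences between S. habrochaites and S. lycopersicum, genes in which S. habrochaites stood apart, genes in which S. lycopersicum stood apart, and genes in which the green-fruited pair stood apart.

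The 2 other wild species place each difference. In 567 genes (2.9% of those tested) S. habrochaites differed the same way from S. pennellii, S. pimpinellifolium and S. lycopersicum. It was higher in 136 of them (0.696%) and lower in 431 (2.21%), which is 17.1% of its higher and 23.97% of its lower calls against S. lycopersicum. In 287 genes (1.47%) all 3 wild species were called in one direction against S. lycopersicum, 83 higher (0.425%) and 204 lower (1.04%). In 507 genes (2.6%) S. habrochaites and S. pennellii were both called in one direction against both S. pimpinellifolium and S. lycopersicum, 212 higher (1.09%) and 295 lower (1.51%), which is 26.7% of the higher and 16.4% of the lower calls. These contrasts share libraries, so the counts describe the rules and are not independent. The remaining 1308 genes, 50.5% of the calls, were in none of these classes, and 73 were in more than one.

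Genes in which S. habrochaites stood apart had a median expression of 10.39 RPKM in that species when higher, against 0.957 in S. pennellii, 1.02 in S. pimpinellifolium and 0.977 in S. lycopersicum. When lower, the medians were 2.1 RPKM in S. habrochaites, against 14.4 in S. pennellii, 12.7 in S. pimpinellifolium and 14.4 in S. lycopersicum. The balance of this class moved with the scaling, to 243 higher and 283 lower genes after quantile normalization.

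Among them, Solyc02g092860.2.1 ran from 75.7 over a median of 108 to 164 RPKM in S. habrochaites, against 1.18 to 6.89 in S. pennellii, 0 to 0.984 in S. pimpinellifolium and 0 to 0.403 in S. lycopersicum (log2 difference to S. lycopersicum 6.62 ± 0.24 SE, adjusted p = 4.3e-19). Solyc04g025560.2.1 ran from 41.7 over a median of 54.1 to 61.0 RPKM in S. habrochaites, against 2.06 to 6.63 in S. pennellii, 0 to 0.575 in S. pimpinellifolium and 0 to 0.974 in S. lycopersicum (5.59 ± 0.21 SE, adjusted p = 8.4e-19). Both were expressed weakly in S. pennellii and near 0 in the red-fruited species. In the 12 factorial libraries of S. lycopersicum, Solyc04g025560.2.1 had no read in any tissue, and Solyc02g092860.2.1 was highest in root, at a mean of 12.8 RPKM in S. pennellii and 4.57 in S. lycopersicum.

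Among the genes lower in S. habrochaites than in each other species, Solyc09g089690.2.1 had 4 reads in S. habrochaites (0 to 0.808 RPKM), against 100.997 over a median of 119 to 138 RPKM in S. lycopersicum (447-fold lower, log2 difference -6.58 ± 0.14 SE, adjusted p = 1.2e-23). It lay at 43.9 to 84.1 RPKM in S. pennellii and 103 to 142 in S. pimpinellifolium. Solyc04g005700.2.1 had 1 read over the S. habrochaites libraries, against 1136 reads and 52.2 over a median of 74.0 to 335 RPKM in S. lycopersicum (-6.65 ± 0.53 SE, adjusted p = 5.3e-11). The first of these varied little among S. lycopersicum libraries, and in the second the 3 libraries of run block 1 (105, 273 and 335) lay above the 4 of block 2 (52.2 to 74.0). Solyc04g005700.2.1 ran from 38.03 to 160.6 RPKM in S. pimpinellifolium and from 1.187 to 44.98 in S. pennellii. Its lowest S. pennellii library was thus close to the highest S. habrochaites value, 0.7393 RPKM. In the factorial, S. pennellii had 0 to 11.35 RPKM, with a seedling mean of 5.449 against 121.6 in S. lycopersicum. S. habrochaites therefore stood less clearly apart from S. pennellii in this gene.

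The class that sets S. lycopersicum apart held 204 genes lower and 83 higher in the wild species, and a pseudocount of 0.1 in place of 1 made this 174 lower and 151 higher. Its lower genes had a median of 0.894 RPKM in S. habrochaites, 0.888 in S. pennellii and 2.33 in S. pimpinellifolium, against 10.9 in S. lycopersicum. Its higher genes had medians of 13.4 RPKM in S. habrochaites, 18.8 in S. pennellii and 11.8 in S. pimpinellifolium, against 1.66 in S. lycopersicum.

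Solyc06g048530.2.1 is one of the higher genes, at 38.1 over a median of 52.4 to 65.0 RPKM in S. habrochaites, 65.2 to 84.5 in S. pennellii and 48.3 to 62.8 in S. pimpinellifolium, against 0 to 0.780 in S. lycopersicum (log2 difference 5.35 ± 0.15 SE, adjusted p = 6.6e-22). In the factorial it stayed between 48.0 and 100 RPKM over all S. pennellii libraries, against 2 reads in all over the 12 of S. lycopersicum. Tissue means in S. pennellii ran from 51.15 in inflorescence to 89.2 in root, and the gene was near 0 in S. lycopersicum in both experiments.

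Solyc07g008570.2.1 differed from that pattern. It ran from 51.0 over a median of 63.9 to 80.5 RPKM in S. habrochaites seedlings, 22.7 to 31.7 in S. pennellii and 3.46 to 6.63 in S. pimpinellifolium, against 0.241 to 1.42 in S. lycopersicum (89.9-fold higher, log2 difference 5.29 ± 0.15 SE, adjusted p = 1.9e-21). In the factorial, however, S. lycopersicum expressed it in every library, from 5.47 to 52.9 RPKM with a seedling mean of 28.3, beside 7.07 to 189 RPKM with a seedling mean of 29.2 in S. pennellii. The near absence in S. lycopersicum was therefore seen in the standard-light seedling libraries and not in the factorial libraries of the same strain, which had another light, another RNA extraction and harvests by tissue. Whether any of these moves the level was not tested.

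Among the genes that fell in all wild species, Solyc09g092040.2.1 had 5 reads in S. habrochaites (0 to 1.29 RPKM), 0 to 5.52 RPKM in S. pennellii and 0 to 4.89 in S. pimpinellifolium, against 106 over a median of 146 to 163 in S. lycopersicum (317-fold lower in S. habrochaites, log2 difference -6.71 ± 0.36 SE, adjusted p = 7.4e-15). Solyc06g035940.2.1 had no read in S. habrochaites, 1 in S. pennellii and 4 in S. pimpinellifolium, against 900 in S. lycopersicum (35.0 to 104 RPKM; at least 280.0-fold lower, adjusted p = 3.8e-18). Both were also expressed in all 6 tissues of S. lycopersicum in the factorial, with the lowest tissue mean of 34.3 RPKM in root for the first and 36.9 in vegetative meristem for the second. S. pennellii had at most 8.54 and 1.23 RPKM there.

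For the green-fruited pair, the medians were close to 1 RPKM in the species with the lower level. Its 212 higher genes had medians of 8.09 RPKM in S. habrochaites and 12.2 in S. pennellii, against 0.761 in S. pimpinellifolium and 0.783 in S. lycopersicum. Its 295 lower genes had medians of 1.26 and 1.37 RPKM in S. habrochaites and S. pennellii, against 10.1 in S. pimpinellifolium and 11.6 in S. lycopersicum.

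Solyc11g021020.1.1 ran from 97.7 over a median of 191 to 282 RPKM in S. habrochaites and from 121 to 274 in S. pennellii, with no read in the 7 libraries of S. pimpinellifolium or the 7 of S. lycopersicum. Between S. habrochaites and S. lycopersicum it was at least 387-fold higher in the wild species (log2 difference 7.5 ± 0.18 SE, adjusted p = 5.1e-23). It was not absent from cultivated tomato altogether: the S. lycopersicum inflorescence libraries of the factorial had a mean of 15.2 RPKM, beside 876 in inflorescence and 1322 in leaf of S. pennellii. Solyc08g069200.1.1 ran from 213 over a median of 627 to 900 RPKM in S. habrochaites and from 181 to 987 in S. pennellii, against 0 to 7.90 in S. pimpinellifolium and 0 to 6.70 in S. lycopersicum (222-fold higher, adjusted p = 2.4e-12). Its implied length is 181 bases, so only 6 reads stand behind the S. lycopersicum values. Within S. habrochaites the 2 libraries of run block 2 (213 and 269 RPKM) lay below the 3 of block 1 (627 to 900).

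On the lower side of this class, Solyc09g084460.2.1 had 3 reads in S. habrochaites and none in S. pennellii, against 12.2 to 85.4 RPKM in S. pimpinellifolium and 33.7 to 189 in S. lycopersicum (log2 difference between S. habrochaites and S. lycopersicum -5.79 ± 0.43 SE, adjusted p = 9.6e-12). In S. lycopersicum the 3 libraries of run block 1 lay between 172 and 189 RPKM and the 4 of block 2 between 33.7 and 44.8, a gap larger than the spread within either block. Solyc07g026960.2.1 had no read in S. habrochaites and 10.37 to 24.7 RPKM in S. pennellii, against 30.0 to 68.2 in S. pimpinellifolium and 25.9 to 59.97 in S. lycopersicum (at least 152-fold lower, adjusted p = 8.0e-20). S. pennellii thus had reads of this gene in every library and S. habrochaites in none.

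The tissue factorial holds no S. habrochaites, but its libraries of S. lycopersicum and S. pennellii are separate from those compared here, so it shows how the genes called in S. habrochaites behave elsewhere. Both experiments use the same strain of S. lycopersicum and the same strain of S. pennellii, so traits of those strains enter both. Of 764 genes called higher in S. habrochaites and tested in the factorial, 72.5% had a positive difference of S. pennellii minus S. lycopersicum in factorial seedlings, against 38.7% of all 19438 genes tested in both. Of 1792 genes called lower, 80.75% had a negative one, against 60.3% of all genes. By the factorial's own test, 204 of the 764 were called higher and 33 lower in its seedlings, and 33 of the 1792 were called higher and 481 lower. Among all 19438 genes the same test called 773 higher (3.98%) and 1483 lower (7.63%). The median differences of S. pennellii minus S. lycopersicum ran from 0.38 in inflorescence to 0.75 in vegetative meristem for the higher genes, and from -0.42 in root to -0.94 in seedling for the lower genes.

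Each class was followed in these separate libraries. The rules for the green-fruited pair and for all wild species already require a call of S. pennellii minus S. lycopersicum in seedlings. The direction of those classes therefore repeats that choice in other libraries of the same strains and says nothing of S. habrochaites. Genes higher in the green-fruited pair had a median of 1.63 in factorial seedlings (208 genes, 102 called higher and 0 lower), and those lower in the pair a median of -1.76 (295 genes, 1 called higher and 149 lower). Of the 136 genes in which S. habrochaites was above all others, 114 were tested in the factorial. Their median was -0.09, with 5 called higher and 15 lower, beside a median of -0.20 over all genes. These are 4.39% and 13.2% of the 114, against 3.98% and 7.63% of all genes. The rest of this class did not reach an RPKM of 1 in 2 factorial libraries, so its lowest genes there are left out. The 431 genes in which it was below all others had a median of -0.53, with 15 called higher and 75 lower. As shares of the 431 this was 3.48% and 17.4%, beside 3.98% and 7.63% of all genes. Lower calls in S. pennellii were thus more frequent in this set than among all genes. Genes higher in all wild species had a median of 1.85 (83 genes, 48 called higher and 2 lower), and those lower in all wild species a median of -1.66 (1 called higher and 103, or 51.2% of them, lower).

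**Figure D4:**
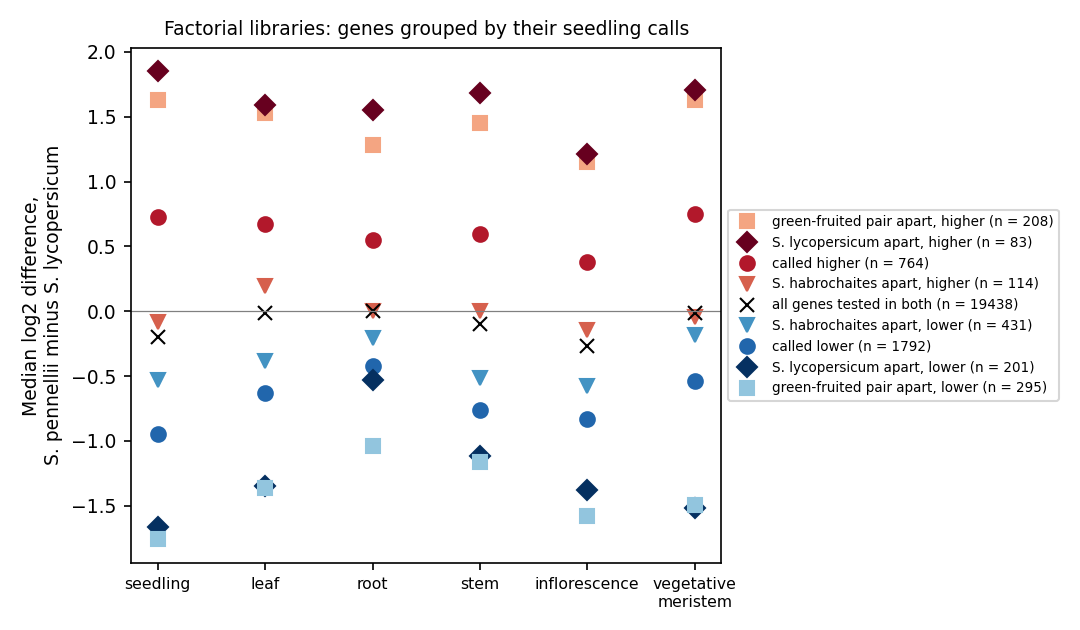
Median log2 difference of S. pennellii minus S. lycopersicum in each of 6 tissues of the factorial, for genes grouped by their calls in the seedling experiment. The groups named for the green-fruited pair and for S. lycopersicum lie at least 0.5 from all genes (crosses) in each tissue, nearest in root for the genes lower in all wild species (-0.53). The genes in which S. habrochaites stood apart as higher lie close to all genes, and those in which it stood apart as lower lie below all genes in each tissue. The pair and S. lycopersicum groups require a call of this contrast in seedlings, so their direction repeats that choice.

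Of the 300 genes called higher in S. habrochaites with a mean RPKM under 1 in S. lycopersicum seedlings, 82 reached a mean of at least 5 RPKM in some other tissue of S. lycopersicum. Root was the highest of those tissues for 50, leaf for 13, stem for 9, inflorescence for 9 and vegetative meristem for 1. Another 109 stayed under 1 RPKM in all 6 tissues of S. lycopersicum, and 44 had no read in its 12 factorial libraries. In factorial seedlings of S. lycopersicum 12 of the 300 had a mean of at least 5 RPKM. A part of these 300 genes is therefore expressed elsewhere in that species, most often in root. The factorial also calls more genes highest in root (1797) than in any other tissue. Genes not called were not counted this way, so whether the root share is particular to the calls was not tested.

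Genes that mark a tissue were then followed in the seedlings. A gene was assigned to a tissue when the factorial called it higher there than in all 5 others, averaged over S. pennellii and S. lycopersicum,, and these genes were counted among the calls for S. habrochaites, beside 3.93% higher and 9.22% lower among all genes tested in both experiments. In bulk samples, fewer cells of a type and less RNA per cell cannot be told apart.

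Genes highest in factorial seedlings had the largest share of lower calls of the 6 tissues. Levels in S. lycopersicum seedlings of the same strain helped to choose these genes. That can by itself tilt them towards lower calls, and how far was not tested. Of 59, 22 were called lower and 3 higher (37.3% and 5.08%), and their median log2 difference was -0.69, which is -0.54 relative to all genes. Genes highest in stem came next, with 69 of 364 lower and 12 higher (18.96% and 3.30%) and a median of -0.52, or -0.38 relative to all genes. Over 11 alternative settings, the relative median ran from -0.76 to -0.50 for the seedling genes and from -0.40 to -0.31 for the stem genes, within run blocks included.

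Genes highest in root and leaf had calls in both directions. Of 1797 root genes, 937 passed the filter of the seedling fit. Among these 937, 88 were higher and 127 lower (9.39% and 13.6%), with a median of -0.11, or 0.03 relative to all genes. These shares depend on the filter: without it, 91 of 1686 root genes were higher and 126 lower, beside 819 and 1806 of all 24935 genes. Of 197 leaf genes, 20 were higher and 25 lower (10.2% and 12.7%), with a median of -0.09, or 0.05 relative to all genes. Their balance moved with the scaling: after quantile normalization 122 root genes were higher and 88 lower, and 28 leaf genes higher and 21 lower. It also moved with run block: 27 leaf genes were higher and 25 lower within block 1, against 8 higher and 33 lower within block 2. Root genes gave 108 higher and 98 lower within block 1, and 61 higher and 123 lower within block 2.

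Genes highest in inflorescence had a median of 0.09, or 0.23 relative to all genes, and 23 of 530 were called higher and 39 lower (4.34% and 7.36%, beside 3.93% and 9.22% of all genes). After quantile normalization 35 were higher and 32 lower. Of 60 genes highest in vegetative meristem, 3 were higher and 7 lower. In this set the run blocks differed most, with a median log2 difference of -0.80 between block 2 and block 1, beside -0.27 over all genes, and its part in the result was not tested.

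**Figure D5:**
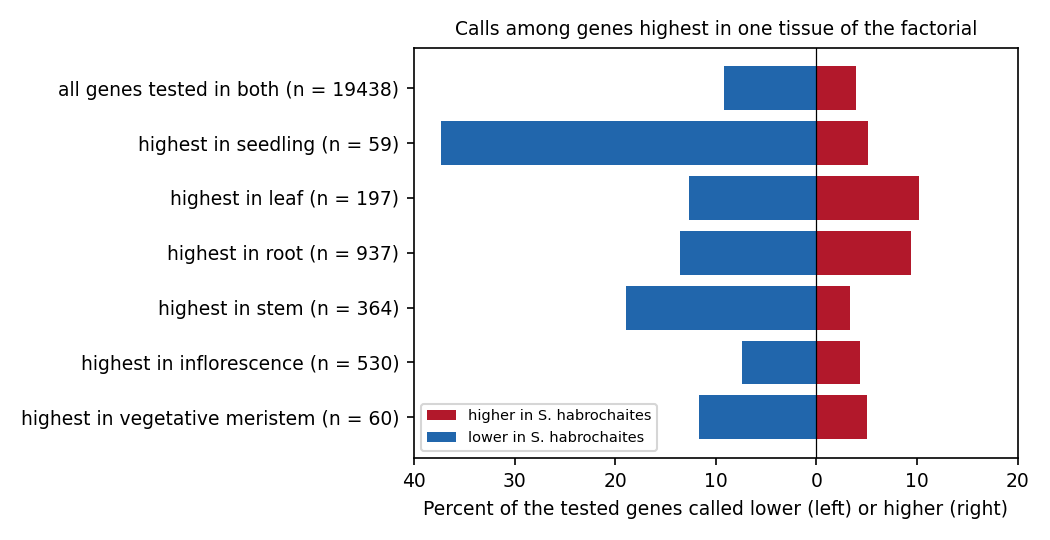
Percent of genes called lower (left) and higher (right) in seedlings of S. habrochaites against those of S. lycopersicum, among all genes tested in both experiments and among the genes assigned to each factorial tissue. The seedling and stem genes reach the largest shares of lower calls, 37.3% and 18.96%, and the leaf and root genes the largest shares of higher calls with all libraries, 10.2% and 9.39%, where leaf gave only 8 higher genes within run block 2.

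Genes were also grouped by the tissue in which S. lycopersicum itself expresses them most, without a test to choose them. Among genes with at least 5 RPKM in some tissue of S. lycopersicum, 16.9% of the 1843 with their maximum in seedling were lower in S. habrochaites and 2.39% higher, with a median of -0.16 relative to all genes. For the 3272 with their maximum in stem the shares were 10.7% and 1.74%, also with a median of -0.16 relative to all genes. For the 1149 with their maximum in leaf they were 11.4% and 5.22%, and for the 1276 of vegetative meristem 10.5% and 2.04%. For the 3652 of root they were 8.54% and 4.49%, and for the 5932 of inflorescence 6.41% and 2.66%. Seedling thus had the largest and inflorescence the smallest share of lower calls in both groupings, while the tissues between them changed places. Both groupings come from the same factorial libraries, so they are not independent. The first chose genes by the average of S. pennellii and S. lycopersicum, and the second by S. lycopersicum levels alone. Each choice can by itself tilt its seedling genes towards lower calls, and how far was not tested.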

How the data were processed

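The authors deposited one table of RPKM (reads scaled to gene length and library total) for 28298 gene models and 52 libraries; reads went through CASAVA 1.4 and BWA 0.5.7, per the submitters' processing notes. The sources used here name no reference or counting rule, so near-identical gene copies, overlapping genes and antisense partners may share reads. The values are whole multiples of 1 read (100% within 0.02 reads), which gave library totals and implied gene lengths (99.7% within 0.05 of a whole number).

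Tests used limma 3.58.1 in R 4.3.3 on log2(RPKM + 1), which understates changes of low genes, with a trended prior and robust estimation. The seedling fit held 28 libraries (24 residual degrees of freedom) and genes that reached an RPKM of 1 in 7 libraries. The factorial fit held 24 libraries (10 residual degrees of freedom), with a mean for every tissue of either species, 1 light term for each species, and genes that reached an RPKM of 1 in 2 libraries. Scripts were tested on simulated data. Named genes were the first 2 per direction and class by log2 difference, among called genes whose groups did not overlap, with a mean of at least 5 RPKM in the higher group; a gene already named was passed over. Genes planned by largest RPKM difference and the product-name lists were not used here, since IDs carry no names. Groups, lists and classes were chosen with earlier results of these data known. Pairs of libraries of one species differed by a chi-square per gene of 1.93 or more, so none was a copy. All 52 value columns were used.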

Additional observations from a re-analysis of the deposited data

Results flagged for a closer look

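In 5 of 38 groups of 7 values, 1 library stood far from the 6 others; chance flags about 1 group in 20. Solyc02g090840.2.1 had 2.80 RPKM in 1 S. habrochaites library, where the others had 0 to 0.983. Solyc04g005700.2.1 had 0.739 RPKM in 1 S. habrochaites library, from its single read there. Solyc04g025560.2.1 had 0.974 RPKM in 1 S. lycopersicum library, again from a single read. Solyc08g069200.1.1 had 6.70 RPKM in 1 S. lycopersicum library, where the others had 0 to 2.84. Solyc07g026960.2.1 was low in 1 S. lycopersicum library, at 25.9 RPKM, where the others had 46.6 to 59.97.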

How the results depend on the processing

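No paired analysis was possible because the species share no replicate numbers in the labels. Between S. habrochaites and S. lycopersicum the count of 2592 genes ran from 2451 to 2742 when 1 of the 14 libraries was left out (735 to 835 higher, 1629 to 1996 lower) and from 1908 (filter at an RPKM of 5) to 3186 (pseudocount of 0.1) over 11 other settings, of which 1, without run block 3 (2398 genes), was chosen after seeing the data. Of the 2592 genes, 72.2% (within run block 2) to 98.5% (no filter) were called in the same direction under those 11 settings, and none in the opposite direction. The classes moved more. With a pseudocount of 0.1, S. habrochaites was lower than each other species in 691 genes (431 as reported), and all wild species were higher than S. lycopersicum in 151 (83 as reported; 142 with limma voom on recovered reads) and lower in 174 (204 as reported). With the filter at an RPKM of 5, the counts were 70 for S. habrochaites higher (136 as reported) and 120 for all wild species lower (204 as reported), and fewer genes were tested. Quantile normalization gave 243 genes higher and 283 lower in S. habrochaites than in each other species. Within run block 2, the green-fruited pair was higher in 124 genes (212 as reported). The causes of the moves other than the filter's were not tested. All 16 named genes kept their direction and call under each of 25 settings (largest adjusted p = 6.8e-05, limma). They were picked for the largest differences and for groups that did not overlap, so this outcome was largely set by the choice. Tests of edgeR and DESeq2 on recovered reads were planned and not run, and limma voom was the only setting that used those reads. Depth limits low values: at 2.1 reads per RPKM, a mean under 1 rests on few reads.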

Other observations

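Genes called between S. habrochaites and S. lycopersicum seedlings lay on all 12 chromosomes, with a share from 11.9% of the tested genes on chromosome 11 to 15.3% on chromosome 12, beside 18.05% of the 133 unplaced genes. Neighbours in ID order were often called together: of the lower genes, 15.9% had a next gene that was also lower, against 8.47% of the genes not called. Of the higher genes, 8.14% had a next gene that was also higher, against 3.92% of the genes not called. Runs of 3 or more neighbours were called lower in 40 places and higher in 6, the longest being 6 lower genes on chromosome 4. In 134 neighbouring pairs 1 gene was higher and the other lower, and neighbours can be near-identical copies that share reads.

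Calls were more frequent among short and weakly expressed gene models. With an implied length under 300 bases 18.4% of the tested genes were called, against 7.09% at 2400 bases or more. With a mean of 2 to 5 RPKM over the 28 seedling libraries 19.4% were called, against 6.52% at 100 RPKM or more. Models whose ID ends in 1.1 were called in 15.8% of cases and those ending in 2.1 in 11.9%, with median implied lengths of 816 and 1050 bases.

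Genes with a mean of at least 10 RPKM over the seedling libraries had a median SD of 0.32 (log2) among S. habrochaites libraries and 0.29 among S. lycopersicum libraries. S. habrochaites libraries are spread over 3 run blocks and S. lycopersicum libraries over 2.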
